A study of Homo sapiens with 6 samples.

Results

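Cathepsins are the proteases of the lysosome, and the 10 cathepsin genes CTSA, CTSB, CTSC, CTSD, CTSH, CTSK, CTSL, CTSS, CTSV and CTSZ were compared between SUM149 cells transfected with siRNA against TIG1 and cells given a non-targeting siRNA. All probe sets paired with a single one of these symbols in the array's annotation were taken, which gave 20 of the 54613 probe sets that are not array controls. CTSB had 5 probe sets, CTSC 4, CTSS 3, CTSZ 2, and each of the other 6 genes had 1, so probe sets of one gene share their transcript and are not independent.

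SUM149 is an established human cell line of inflammatory breast cancer. The siTIG1 group was 3 arrays of cells transfected with an ON-TARGET Plus siRNA pool against TIG1 (current symbol RARRES1), and the siControl group was 3 arrays of cells given a siGENOME non-targeting pool. Both pools were used at 200 nmol/L with oligofectamine, on cells kept in medium with serum, insulin and hydrocortisone, and they belong to different siRNA product lines, so target and product line cannot be told apart. Nothing says that the replicates are separate cultures. The p-values then reflect only sample-to-sample spread, possibly technical.

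Most cathepsins belong to the papain family and use a cysteine in the active site, among them CTSB, CTSC, CTSH, CTSK, CTSL, CTSS, CTSV and CTSZ. CTSD is an aspartic protease and CTSA a serine carboxypeptidase. All are made as inactive precursors, tagged with mannose 6-phosphate, carried to the acidic lysosome and activated there, and tumour cells can also release them to the matrix, where cystatins inhibit the cysteine type. CTSD and CTSB have long been studied in breast cancer.

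Levels are log2 signals as the authors deposited them, differences are siTIG1 minus siControl on that scale, and a signal of one probe set cannot be set against that of another. Where a gene has several probe sets they are numbered in the order of their identifiers. A probe set was called higher or lower at a limma adjusted p under 0.05, with Benjamini-Hochberg adjustment over all 54613 probe sets. With 3 arrays against 3, an exact 2-sided permutation test cannot give less than p = 0.1, the value it gave for each of the 5 called cathepsin probe sets.

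TIG1 read 10.72, 10.03 and 9.96 in siTIG1 arrays and 11.04, 10.92 and 12.58 in siControl arrays on the first of its 3 probe sets. The differences on the 3 probe sets were -1.28, -1.24 and -0.83, and none passed (limma adjusted p = 0.20 to 0.27), though the first and second did without siControl replicate 3 (limma adjusted p = 0.024 and 0.043). Probe set 3 read 12.69, 11.95 and 11.87 in siTIG1 arrays and 12.65, 12.61 and 13.74 in siControl arrays, so siTIG1 replicate 1 lay above siControl replicates 1 and 2, and without siControl replicate 3 the probe set did not pass either (limma adjusted p = 0.16). With all 6 arrays the TIG1 transcript itself was thus lower on average but not called, and siTIG1 names the transfection, not a measured depletion. The array of siControl replicate 3 stood apart, with a mean correlation to the other controls of 0.985, against 0.998 for each siTIG1 array within its group. It also had the highest 3' minus 5' signal of the ACTB control probe sets, a measure of RNA integrity, at 3.21, against 2.73 and 2.62 in the other siControl arrays, and this measure was lower, 2.14 to 2.34, in the siTIG1 arrays. On the GAPDH control probe sets the measure was 0.46 to 0.47 in siTIG1 arrays and 0.48 and 0.46 in siControl replicates 1 and 2. In siControl replicate 3 it was 0.57. Results are therefore given with and without that array, and the part of RNA quality in them was not tested. Above the median probe set level of 7.89 lay 6 of 6 measured breast epithelial markers and 3 of 10 leukocyte markers. So did 4 of 7 fibroblast markers and 3 of 4 endothelial markers. Each marker was read on 1 probe set per gene, and the median gene level on that choice was higher, at 8.69. As levels of different probe sets cannot be compared and no detection calls were given, these counts do not show which cell types were present. The fibroblast marker FAP was at 11.73 in siTIG1 and 10.81 in siControl arrays on average, a difference of 0.92 ± 0.26 (SE, limma adjusted p = 0.10). Without siControl replicate 3, which read 10.17, FAP passed at 0.60 (limma adjusted p = 0.00017).

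Promoter sequence is shown for the 2 genes that are not cysteine proteases, which were called in opposite directions, and for CTSC, which had the largest difference. Each runs from 250 bases before the gene's start to 50 after it, 5' to 3' on the gene's strand, from RefSeq on GRCh38.p14. Of the 10 genes 7 were matched there. CTSB, CTSK and CTSS were not, so their promoters were not searched. CTSA lies at chr20:45891085-45891384 on the plus strand, CTSD at chr11:1763878-1764177 on the minus strand and CTSC at chr11:88337687-88337986 on the minus strand. Capitals mark CACGTG, the core of the element bound by TFEB and related lysosomal regulators and of E-boxes in general, in CTSA and CTSD, and CCAAT in CTSC.
CTSA: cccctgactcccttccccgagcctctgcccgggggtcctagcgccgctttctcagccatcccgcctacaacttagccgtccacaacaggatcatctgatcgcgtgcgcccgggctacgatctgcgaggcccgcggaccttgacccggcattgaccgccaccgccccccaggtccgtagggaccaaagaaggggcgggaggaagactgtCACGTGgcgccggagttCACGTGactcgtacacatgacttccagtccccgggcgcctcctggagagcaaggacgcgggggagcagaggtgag
CTSD: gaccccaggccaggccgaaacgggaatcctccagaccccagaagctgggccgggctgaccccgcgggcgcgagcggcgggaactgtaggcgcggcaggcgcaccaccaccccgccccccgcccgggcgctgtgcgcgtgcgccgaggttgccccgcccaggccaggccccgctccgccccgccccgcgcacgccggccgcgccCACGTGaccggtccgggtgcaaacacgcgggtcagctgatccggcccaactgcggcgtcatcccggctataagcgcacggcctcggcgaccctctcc
CTSC: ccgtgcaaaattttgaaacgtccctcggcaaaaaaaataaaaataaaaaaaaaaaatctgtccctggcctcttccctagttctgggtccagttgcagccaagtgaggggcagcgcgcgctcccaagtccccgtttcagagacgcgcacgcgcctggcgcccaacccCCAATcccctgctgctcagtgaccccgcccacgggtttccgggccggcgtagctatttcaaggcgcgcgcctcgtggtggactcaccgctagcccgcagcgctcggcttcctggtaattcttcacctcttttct

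On either strand, CACGTG was present in the CTSA window at 42 and 25 bases before the start and in the CTSD window at 47 bases before it, and in no other of the 7 cathepsin windows. Over all 35116 promoter windows of this length 7.26% held it. The longer form TCACGTGA, which contains it, was found in CTSA, at 26 bases before the start, and in 0.98% of all windows. CCAAT was found in CTSC, CTSL and CTSV, at 84, 86 and 76 bases before the start, and in 34.6% of all windows. GGGCGG, a GC box, was found in all 7 and in 45% of all windows. TATAAA and the AP-1 motif TGANTCA matched none of the 7 windows, and were in 11.5% and 7.71% of all windows. A match of letters is a description and says nothing of binding in these cells.

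Cathepsin A rose and cathepsin D fell in the siTIG1 group, and cathepsins B and S rose on some of their probe sets. In these bulk cultures, fewer cells with a transcript and less of it per cell cannot be told apart. Of the 20 probe sets 4 were called higher, where 2.14% of all probe sets were, and 1 was called lower, where 2.87% were. The other 15 did not pass, and at an unadjusted p under 0.05 there were 9 higher and 1 lower. The share of all probe sets or genes at that unadjusted cut was not counted, here or below. In 10 of the 20 all siTIG1 arrays lay above all siControl arrays, a pattern seen in 14.8% of all probe sets, and in 1 they all lay below, seen in 13%. The median difference of the 20 was 0.24, against 0.01 over all probe sets.

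CTSD, the aspartic cathepsin, was the only one of the 20 probe sets with a negative difference. Its single probe set read 9.79, 9.58 and 9.74 in siTIG1 arrays and 10.28, 10.15 and 10.21 in siControl arrays. The groups did not overlap, and siControl replicate 3 lay between its fellow controls. The difference was -0.51 ± 0.07 (SE, limma adjusted p = 0.017), 1.42-fold lower, and without siControl replicate 3 it was -0.51 (limma adjusted p = 0.0018). Leaving out any other single array ended the call in the fit over probe sets (limma adjusted p of at most 0.087), while the difference stayed between -0.55 and -0.45.

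CTSA, the serine carboxypeptidase that also protects beta-galactosidase and neuraminidase in the lysosome, rose. Its single probe set read 12.12, 12.21 and 12.20 in siTIG1 arrays and 11.64, 11.66 and 11.35 in siControl arrays. All siTIG1 arrays were above all controls, with siControl replicate 3 the lowest of the 6. The difference was 0.62 ± 0.09 (SE, limma adjusted p = 0.018), 1.54-fold higher, and 0.52 without siControl replicate 3 (limma adjusted p = 0.00033). The call was kept without any 1 control array and lost without any 1 siTIG1 array (limma adjusted p of at most 0.10). The differences of CTSA and CTSD were thus 1.13 apart on the log2 scale, which restates their values and is no separate result.

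Cathepsin S, which cuts the invariant chain of class II molecules in antigen-presenting cells, was higher on 2 of its 3 probe sets. Probe set 2 read 8.08, 8.17 and 8.25 in siTIG1 arrays and 7.88, 7.79 and 7.81 in siControl arrays. The groups were apart and each was tight, with a difference of 0.34 ± 0.06 (SE, limma adjusted p = 0.034), 1.27-fold. Probe set 1, of the x_at type whose probes can bind several transcripts, read 5.56, 5.43 and 5.65 in siTIG1 arrays and 4.85, 5.11 and 4.82 in siControl arrays. It was 0.62 ± 0.10 higher (SE, limma adjusted p = 0.022), but these are among the dim signals of the array and are not shown to lie above background. On probe set 3 the groups overlapped and the difference was 0.08 ± 0.08 (SE, limma adjusted p = 0.65). Because probe set 3 has the highest signal and stands for the gene at gene level, CTSS was not called there (limma adjusted p = 0.62), while the mean of its 3 probe sets was, at 0.35 (limma adjusted p = 0.015).

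Of the leukocyte markers 0 of 10 passed limma (unadjusted p under 0.05 for 1 higher and 1 lower). Their summed log2 signals were 71.59 to 72.03 in siTIG1 arrays and 70.34 to 72.64 in siControl arrays. The sum of 72.64 was that of siControl replicate 3, and the other siControl arrays lay below all siTIG1 arrays. Without siControl replicate 3, 3 of the 10 were called higher and 0 lower, where 12.2% and 14.8% of all genes were. These were CD14, at 0.80 (0.36 ± 0.35 SE with all arrays), AIF1, at 0.22, and TYROBP, at 0.21 (limma adjusted p = 1.6e-05, 0.023 and 0.047). The calls of CTSS probe sets 1 and 2 were kept without that array (limma adjusted p = 0.0026 and 0.0079). SUM149 is a cell line, so these markers are not a count of leukocytes, and their relation to CTSS was not tested. Probe set 1 was also called without siControl replicate 2, and with any other array left out neither call was kept, nor that of probe set 2 without siControl replicate 2 (limma adjusted p of at most 0.15). CD74, the invariant chain, was at 0.11 ± 0.06 (SE, limma adjusted p = 0.37).

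Cathepsin B, which works both as an endopeptidase and as a carboxypeptidase and has been tied to matrix breakdown by tumours, was called on 1 of its 5 probe sets. Probe set 2 read 11.96, 11.96 and 11.99 in siTIG1 arrays and 11.62, 11.70 and 11.76 in siControl arrays. All siTIG1 arrays were above all controls by a small step, 0.28 ± 0.06 (SE, limma adjusted p = 0.043), 1.21-fold. Probe sets 1 and 3 also did not overlap, with differences of 0.26 ± 0.06 and 0.39 ± 0.09 (SE), and neither passed (limma adjusted p = 0.075 and 0.072), though both did without siControl replicate 3 (0.0045 and 0.014). On probe sets 4 and 5 the groups overlapped, with differences of 0.13 ± 0.12 and 0.02 ± 0.18 (SE), and of -0.0017 and -0.13 without that array. The probe sets of this gene thus gave anything between 0.02 and 0.39 with all arrays, and their mean, 0.22, was not called (limma adjusted p = 0.13). The call of probe set 2 was kept without siControl replicate 3 (0.315, limma adjusted p = 0.0042) and lost without any other array, under median centring (0.055) and with a trended robust variance (0.093).

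**Figure D1:**
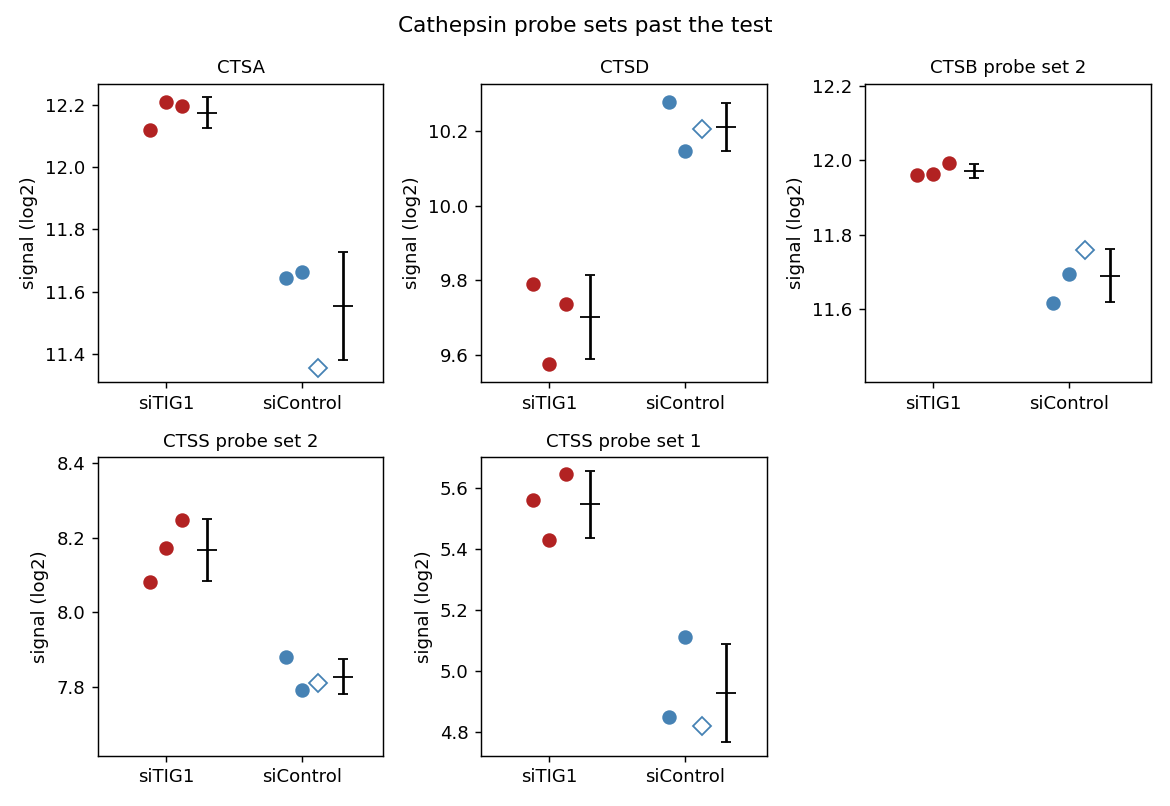
Log2 signal of the 5 called cathepsin probe sets on each array, siTIG1 (red) left of siControl (blue), with the mean and SD of 3 arrays in black; the open diamond is siControl replicate 3. The siTIG1 arrays lie above all siControl arrays for CTSA, CTSB and CTSS and below them for CTSD.

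Cathepsin C, the dipeptidyl peptidase that activates the granule proteases of leukocytes, had the largest differences of the family but did not pass with all 6 arrays. Probe set 3 read 13.074, 12.940 and 13.117 in siTIG1 arrays and 11.958, 11.997 and 10.475 in siControl arrays. Probe set 2 read 13.41, 13.53 and 13.55 in siTIG1 arrays and 12.58, 12.46 and 11.38 in siControl arrays. On both, every siTIG1 array was above every control, and siControl replicate 3 lay far below both other controls.

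The differences were 1.57 ± 0.40 and 1.36 ± 0.30 (SE), 2.96-fold and 2.57-fold, with limma adjusted p = 0.084 and 0.058. Probe set 2 lay just outside the threshold, and the called probe set 2 of CTSB just inside it. Without siControl replicate 3 they were 1.07 ± 0.07 and 0.98 ± 0.07 (SE), about the same on both, and passed (limma adjusted p = 2.2e-05 and 3.3e-05). The CTSC probe sets did not give one size. Probe set 1, the one with the highest signal, read 13.81, 13.83 and 13.79 in siTIG1 arrays and 13.54, 13.52 and 12.32 in siControl arrays, a difference of 0.68 ± 0.32 (SE, limma adjusted p = 0.31) with all arrays and of 0.28 without siControl replicate 3 (limma adjusted p = 0.0062). On probe set 4 the groups overlapped, with 0.19 ± 0.18 (SE) and, without that array, -0.02 (limma adjusted p = 0.92).

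Cathepsins V and L are close paralogs with broad endopeptidase activity, CTSV being best known from thymus and testis and CTSL from most tissues. CTSV read 10.99, 11.23 and 11.18 in siTIG1 arrays and 10.62, 10.67 and 9.38 in siControl arrays. The groups were apart, but siControl replicate 3 was far below the rest, and the difference of 0.91 ± 0.34 (SE) did not pass (limma adjusted p = 0.21). CTSL read 12.75, 12.77 and 12.77 in siTIG1 arrays and 12.42, 12.44 and 12.78 in siControl arrays. Here siControl replicate 3 was the highest of all 6 arrays and made the groups overlap, with a difference of 0.22 ± 0.10 (SE, limma adjusted p = 0.32). Without it the differences of CTSV and CTSL were 0.49 and 0.33, and both passed (limma adjusted p = 0.0023 and 0.0024).

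**Figure D2:**
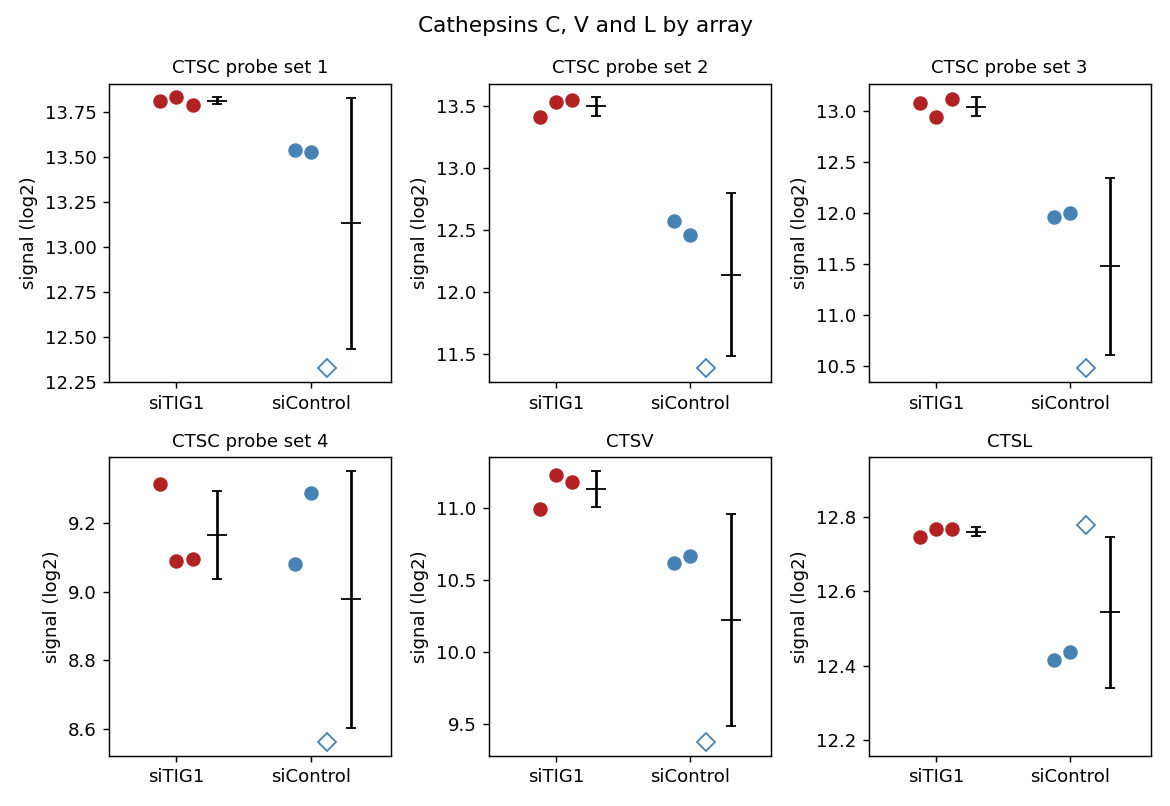
Log2 signal of the 4 CTSC probe sets, CTSV and CTSL on each array, siTIG1 (red) left of siControl (blue), with the mean and SD of 3 arrays in black; the open diamond is siControl replicate 3. That array is the lowest of 6 for CTSC and CTSV and the highest for CTSL.

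The remaining cysteine cathepsins did not pass. CTSH, an aminopeptidase, read 10.60 to 10.70 in siTIG1 arrays and 10.46 to 10.82 in siControl arrays, a difference of 0.06 with a 95% interval of -0.19 to 0.31. CTSK, the collagenase of osteoclasts, read 8.54 to 8.56 in siTIG1 arrays and 8.35 to 8.54 in siControl arrays, a difference of 0.12 with an interval of -0.03 to 0.27. CTSZ, a carboxypeptidase, differed by 0.20 ± 0.23 on probe set 1 and by 0.10 ± 0.06 on probe set 2 (SE, limma adjusted p = 0.70 and 0.42). The difference of CTSK without siControl replicate 3 was 0.077 and those of CTSZ were -0.04 and 0.11, and none passed (limma adjusted p = 0.44, 0.89 and 0.26). At gene level without that array, CTSH passed at 0.18 (limma adjusted p = 0.032), while in the fit over probe sets it did not (0.056).

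By class, all 18 probe sets of the 8 cysteine cathepsins had a positive difference with all arrays, where 54.9% of all probe sets did. Of these 18, 3 were called higher and 0 lower by limma (8 and 0 at an unadjusted p under 0.05), with a median of 0.24 and a range of 0.02 to 1.57. The serine cathepsin CTSA was higher and the aspartic cathepsin CTSD lower, each from 1 gene with 1 probe set, so a class cannot be told apart from its gene. Without siControl replicate 3, 14 of the 18 were positive, where 55.8% of all probe sets were. Of the 18, 10 were then called higher and 0 lower by limma (11 and 0 at an unadjusted p under 0.05). Of all probe sets 7.87% were called higher and 11% lower. The median was then 0.29 and the range -0.13 to 1.07.

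**Figure D3:**
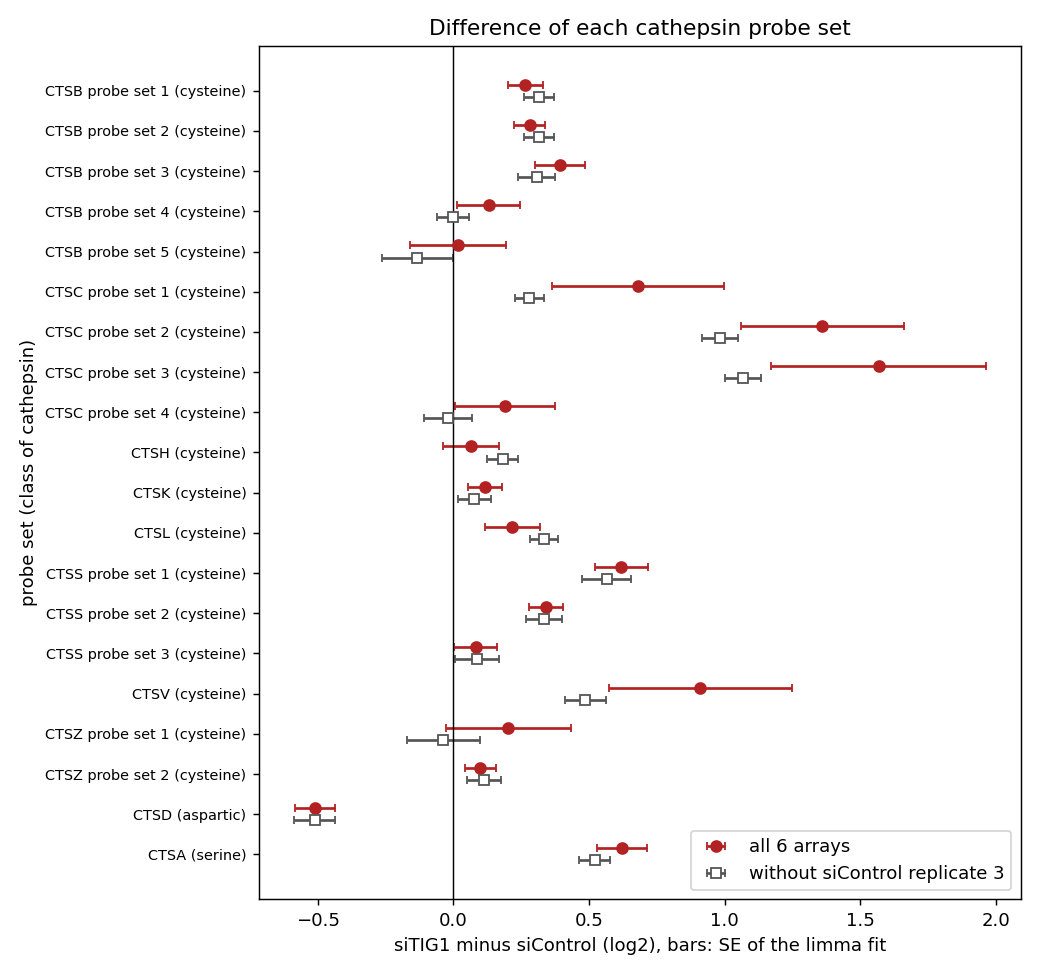
Difference of each of the 20 cathepsin probe sets, siTIG1 minus siControl on the log2 scale, with the SE of the limma fit, from all 6 arrays (red circles) and without siControl replicate 3 (open squares). CTSD stands alone at -0.51, and the CTSC and CTSV differences shrink from up to 1.57 to at most 1.07 without that array.

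At gene level, with 1 probe set per gene and adjustment over 19775 genes, CTSA and CTSB were called higher (3.16% of all genes were) and CTSD lower (4.14% were). Likeness to these 3 was measured by Pearson's r of log2 signals over the 6 arrays, among 9876 genes above the median gene level and without cathepsins. HEBP1, RAB30 and RPS27L were most like CTSA (r = 0.999, 0.999 and 0.998). XPNPEP1, IL10RB and ARL15 were most like CTSB (r = 0.997, 0.995 and 0.995), and DIS3, GSTM3 and HIP1 most like CTSD (r = 0.996, 0.994 and 0.992). The arrays fall into groups, so many genes come close: 784, 521 and 657 genes had r above 0.9 with CTSA, CTSB and CTSD.

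The 5 cathepsins outside the set, CTSE, CTSF, CTSG, CTSO and CTSW, did not pass (limma, 3 higher and 0 lower at an unadjusted p under 0.05). The largest differences were those of CTSO, 0.30 ± 0.08, and CTSW, 0.20 ± 0.05 (SE, limma adjusted p = 0.095 and 0.064). Both passed without siControl replicate 3, at 0.22 and 0.20 (limma adjusted p = 0.019 and 0.020). CTSE was at -0.17 ± 0.08 with all arrays (SE, limma adjusted p = 0.30). Without siControl replicate 3 CTSE passed in the other direction, at -0.25 (limma adjusted p = 0.012).

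Among 13 measured inhibitors of cathepsins 2 rose and 0 fell by limma (3 and 1 at an unadjusted p under 0.05), where 3.16% of all genes rose and 4.14% fell, and the list's median was -0.02. Cystatin M/E (CST6), which inhibits CTSL, CTSV and legumain, rose 1.75-fold. It read 8.56, 8.72 and 8.72 in siTIG1 arrays and 8.03, 7.91 and 7.64 in siControl arrays, a difference of 0.80 ± 0.11 (SE, limma adjusted p = 0.013). Its 2 probe sets were positive, 1 of them was called, and their mean was 0.44. SERPINB3, a serpin that inhibits CTSK, CTSL and CTSS, rose by 2.72 ± 0.32 (SE, limma adjusted p = 0.0084), and its probe set can share signal with that of its paralog SERPINB4. Cystatin C (CST3), the main secreted inhibitor, was at -0.35 ± 0.08 (SE, limma adjusted p = 0.056), and without siControl replicate 3 it passed at -0.40 (limma adjusted p = 0.0024). CSTA and CSTB, the inhibitors inside the cell, were at 0.07 and 0.19 and did not pass (limma adjusted p = 0.84 and 0.060). With siControl replicate 3 left out both passed, at 0.24 and 0.20 (limma adjusted p = 0.015 and 0.017). With all arrays CSTB was positive on 1 of its 2 probe sets, and the mean of the 2 was -0.11.

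Genes that help cathepsins to the lysosome or activate them did not pass with all 6 arrays. None of 6 measured activation and partner genes was called by limma (0 and 0 at an unadjusted p under 0.05). Of these, ANXA2 was read on a dim probe set, at 4.93 in siTIG1 and 4.82 in siControl arrays on average. Its 4 probe sets were all positive, with 0 called and a mean difference of 0.27. The sialidase NEU1, which needs CTSA for its stability, read 9.91, 9.95 and 10.02 in siTIG1 arrays and 9.19, 9.27 and 10.04 in siControl arrays. Here too siControl replicate 3 was the highest of the 6, and the difference of 0.46 ± 0.22 (SE, limma adjusted p = 0.30) became 0.73 without it (limma adjusted p = 2.8e-05). S100A10 was at 0.27 ± 0.19 (SE, limma adjusted p = 0.48) and at 0.04 without that array (limma adjusted p = 0.61). Of 9 sorting genes none passed (1 higher and 2 lower at an unadjusted p under 0.05), and the mannose 6-phosphate receptor IGF2R was at -0.36 ± 0.30 and the adaptor GGA3 at -0.34 ± 0.10 (SE, limma adjusted p = 0.56 and 0.11). Without siControl replicate 3, which read 12.07 for IGF2R against 10.90 and 11.19 in the other controls, IGF2R was at -0.02 and GGA3 at -0.23, and only GGA3 passed (limma adjusted p = 0.92 and 0.011). With all arrays GGA3 was negative on 1 of its 2 probe sets, and the mean of the 2 was -0.10.

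Of 23 measured hydrolases and their activators 4 rose and 0 fell by limma (9 and 3 at an unadjusted p under 0.05), where 3.16% of all genes rose and 4.14% fell, and the median was 0.19 against 0.02 over all genes. The list had, without siControl replicate 3, 9 higher and 4 lower, where 12.2% and 14.8% of all genes were called. The GM2 activator GM2A rose 1.70-fold (0.77 ± 0.07 SE, limma adjusted p = 0.0038), and its 7 probe sets shared that direction. The acid lipase LIPA rose 1.59-fold (limma adjusted p = 0.0060), but only 1 of 2 probe sets ran this way. The acid ceramidase ASAH1 rose 1.33-fold (limma adjusted p = 0.015), with this sign on 2 of 5 probe sets. The peptidase TPP1 rose 1.41-fold (limma adjusted p = 0.046), with this sign on 3 of 4.

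Of 14 measured subunits of the proton pump that acidifies the lysosome 2 rose and 0 fell by limma (6 and 1 at an unadjusted p under 0.05), where 3.16% of all genes rose and 4.14% fell. They were ATP6V0E1, 1.53-fold higher (limma adjusted p = 0.0042) with this direction on its 7 probe sets, and ATP6V1D, 1.36-fold higher (limma adjusted p = 0.038). ATP6V1D was positive on its 4 probe sets, of which 1 was called, and their mean was 0.26. Of 11 genes of the lysosomal membrane LAMP2 rose 1.48-fold (0.57 ± 0.06 SE, limma adjusted p = 0.0064), and 10 did not pass, with a median of the list of -0.10. LAMP2 was positive on 3 of its 4 probe sets, and the mean of the 4 was 0.31. Of the 4 transcription factors that drive lysosomal genes none was called (0 higher and 1 lower at an unadjusted p under 0.05). TFE3 was at -0.45 ± 0.14 and TFEB at -0.21 ± 0.10 (SE, limma adjusted p = 0.11 and 0.29). TFE3 passed at -0.30 without siControl replicate 3 (limma adjusted p = 0.0046), and TFEB was at -0.10 (limma adjusted p = 0.18). With all arrays TFE3 was negative on 3 of its 4 probe sets and TFEB on 1 of 2, with means of -0.17 and -0.10.

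Over the 85 measured genes of these 8 lists 9 were called higher, where 3.16% of all genes were, and 0 lower, where 4.14% were, by limma (23 and 10 at an unadjusted p under 0.05). The median of the 85 was 0.04, and 55.3% of them had a positive difference, against 54.8% of all genes. Without siControl replicate 3 the counts were 26 higher and 13 lower, where 12.2% and 14.8% of all genes were called. Beside the hydrolases, these were 6 and 1 pump subunits, 1 and 3 membrane genes, 4 and 1 inhibitors, 2 and 2 sorting genes, 2 and 0 activation and partner genes, 0 and 1 transcription factors and 2 and 1 of the other cathepsins.

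**Figure D4:**
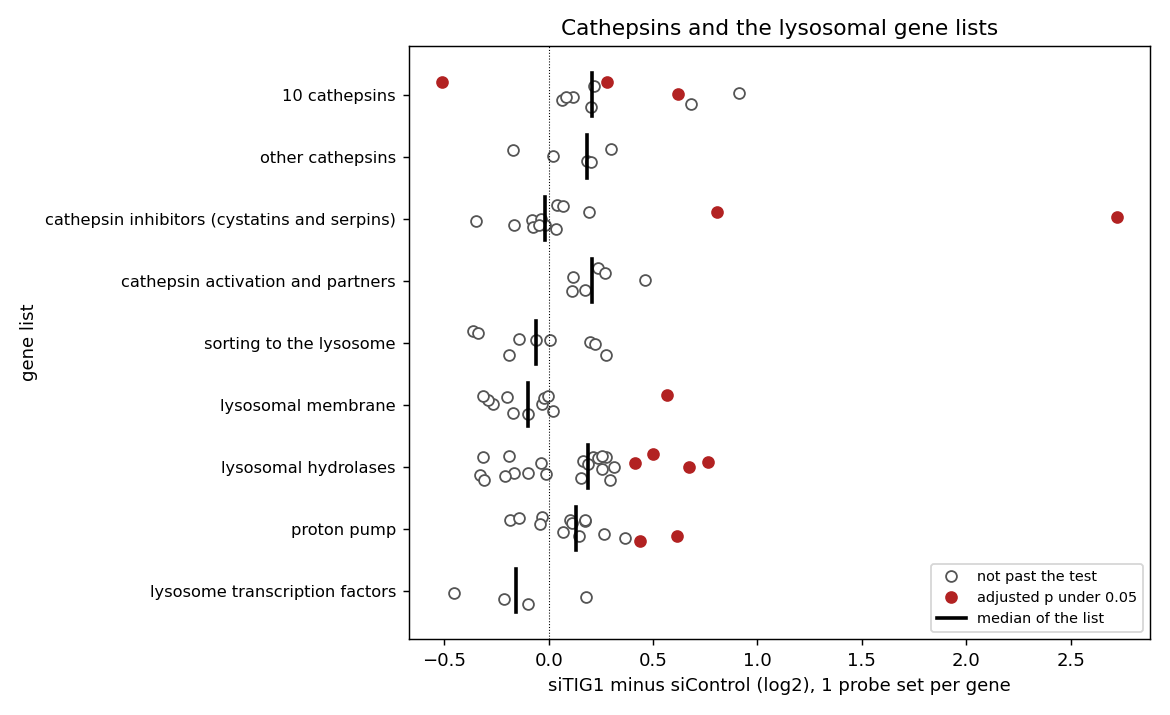
Difference of each measured gene, siTIG1 minus siControl on the log2 scale with 1 probe set per gene, for the 10 cathepsins and 8 lysosomal gene lists; filled red points passed limma at an adjusted p under 0.05, open points did not, and the bar is the list's median. CTSD is the only called gene below 0, and SERPINB3 at 2.72 is the farthest to the right.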

How the data were processed

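RNA of 6 SUM149 samples was hybridised as biotin-labelled cRNA to Affymetrix HG-U133 Plus arrays, per the labels' protocols. The authors deposited a log2 signal for each probe set on each array. The log base was inferred from the span of 4.28 to 15.59. The submitters' processing notes name MAS5 and RMA, without saying which made the values. Array medians lay within 7.87 to 7.90, a sign of earlier normalization, and no further scaling was applied. No detection calls come with them, so low signals are not shown to lie above background.

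After 62 control probe sets were set aside, 54613 were fitted with limma 3.58.1 under R 4.3.3 by lmFit and eBayes, without a block, with 2-sided p-values adjusted by Benjamini-Hochberg. Symbols come from the platform annotation, updated through gene numbers to RefSeq: 41091 probe sets had 1 symbol, 1801 several and 11721 none. At gene level the probe set with the highest mean stood for each of 19775 genes, x_at sets only where no other existed. The test was checked on simulated data with equal spread in both groups and no array standing apart, which differs from these data. Members, lists and tests were chosen with earlier results of these data known, and the promoter motifs after these. Named were all cathepsins, up to 4 called genes per list or else the 2 largest differences, and the 3 genes most like each called cathepsin. Also named, after seeing their values, were CTSE, ANXA2, CD74, CSTA, CSTB, CST3, FAP, CD14, AIF1 and TYROBP. List genes without a probe set of 1 symbol were not analysed here. The number of arrays limits the precision. The alternatives tried were median centring, quantile normalization, leaving out dim or x_at probe sets, trended robust variances, the replicate number as a block, omission of each array, and averaging over probe sets of a gene.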

Additional observations from a re-analysis of the deposited data

How the results depend on the processing

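With 1 array left out, the called cathepsin probe sets ranged from 0 to 11 higher and 0 to 1 lower, all probe sets from 155 to 4297 higher and 165 to 6027 lower, and genes of the lysosomal lists from 4 to 26 higher and 0 to 13 lower. The highest count of each came without siControl replicate 3. Without any 1 siTIG1 array limma called 0 cathepsin probe sets higher and 0 lower, with 8 and 1 at an unadjusted p under 0.05. Replicate numbers are shared between groups. Deviations of same-numbered arrays from their group means correlated at -0.043, -0.0099 and -0.0054, and those of other pairs at -0.028 to 0.060. With 3 arrays per group, of which siControl replicate 3 stood apart, this cannot show whether the numbers pair the arrays. With the replicate block limma called 0 cathepsin probe sets higher and 0 lower (9 and 1 at an unadjusted p under 0.05), 215 and 263 of all probe sets, and 4 list genes higher. List genes called lower numbered 1 under median centring and 1 with dim genes left out. The sign turned for uncalled cathepsins only. CTSB probe set 5 was at -0.00031 under median centring and ranged from -0.13 to 0.17 with 1 array left out. Such omission gave -0.0017 to 0.20 for CTSB probe set 4, -0.019 to 0.35 for CTSC probe set 4 and -0.037 to 0.37 for CTSZ probe set 1 and for the CTSZ gene. The filter on dim probe sets kept 19 of the 20, and with it CTSC probe set 2 passed (limma adjusted p = 0.049), as did CTSB probe set 1 after quantile normalization (limma adjusted p = 0.049). The cause of these changes was not tested.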
